A study of Homo sapiens with 36 samples.

Results

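The genes described here are 38 named members of the interstrand crosslink repair and homologous recombination (HR) pathways, often called the Fanconi anemia (FA) and BRCA genes, out of the 57820 genes counted. The list is one of gene names and sets no threshold on a measured value, although it was drawn up with earlier results of these data known. All 38 were matched by symbol to an Ensembl identifier and all 38 passed the filter on low counts in each comparison. RNA-seq of A2780, an ovarian cancer line of human origin, covered 12 conditions with 3 libraries each, 36 in all. A2780wt (wt) is the platinum-sensitive parental line, and A2780cis (cis) was derived from it by chronic exposure to cisplatin. The cells called cis SSP are cis cells that resumed growth after a period in medium lacking serine and glycine and regained serine synthesis. Each of the 3 was kept in complete medium or in medium free of serine and glycine (-SG), and either left untreated or given carboplatin (carbo), a platinum drug whose dose the labels give as 6 with an illegible unit prefix. The time of collection is not in the labels. All cells descend from 1 cell line and the libraries of a condition are named technical replicates, so the p-values below measure the spread between libraries and not between independent cultures.

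Carboplatin and cisplatin join the 2 strands of DNA in a small share of their lesions, and the FA pathway repairs these crosslinks at stalled replication forks. A core complex of FANC and FAAP proteins, with the E2 enzyme UBE2T, attaches ubiquitin to FANCD2 and FANCI. The modified pair recruits nucleases that cut around the lesion, and the break left behind is resected and repaired by HR through BRCA1, PALB2, BRCA2 and their partners. Many of these genes are transcribed mainly in cycling cells, in which the pathway acts. Inherited loss of its members causes Fanconi anemia or predisposition to breast and ovarian cancer, and tumors without a working pathway are sensitive to platinum.

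Total counts on genes ranged from 13074937 to 20441582 per library, and the members together took 0.108% to 0.248% of them. A few libraries stood apart. In the first cis SSP library and the second cis SSP -SG library, levels fell with transcript length relative to the other libraries of their condition (slopes of −0.47 and −0.48 log2 units per doubling of length). The median deviation of 34 members from the mean of those other libraries was −0.36 and −0.28 log2 units. The second wt -SG carbo library had a weaker slope of −0.17. In cis -SG carbo, replicates 2 and 3 had 17.9% and 14.9% of reads on no annotated feature, against 4.21% to 9.31% elsewhere. The main test results and condition patterns of the members that rest on these libraries are given with and without them. Sums, figures, other gene lists and the genes most like the members use all libraries. Of the markers of an ovarian carcinoma, PAX8, WT1 and MUC16 stayed at or under 1.42 CPM (a gene's counts scaled to the library's total) in every library. Of 4 epithelial genes, EPCAM, KRT8 and CDH1 stayed at or under 6.45 CPM, and KRT18 reached 44.1 CPM in cis cells without serine and glycine. PTPRC, which marks blood cells, was at or under 0.066 CPM, whereas the fibroblast collagen COL3A1 was at 582 CPM or more throughout and COL1A1 ranged from 1.66 to 991 CPM, lowest in cis -SG carbo and highest in wt -SG carbo. The labelled cell type thus rests on the labels and not on these markers.

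Across conditions the members covered a wide range of levels. In untreated wt cells the highest level per kilobase of transcript was that of UBE2T (79.0 CPM per kb), ahead of USP1 (53.1), FANCI (41.9) and NBN (32.1). BRCA2 (3.58 CPM per kb), RAD54B (3.57), BARD1 (3.41), FAAP24 (3.25) and FANCB (2.87) were among the lowest. Summed over the 38 genes, CPM averaged 2013 ± 16.5 (SD, n = 3) in wt and 2513 ± 34.9 in cis cells. The sum was lowest in wt cells under carboplatin, at 1282 ± 9.01 in complete medium and 1178 ± 79.6 without serine and glycine. For 27 of the 38 members the condition with the lowest mean was wt -SG carbo, and for 15 the highest was untreated cis. BRCA1 followed the mean of the other members most closely over the 12 conditions (Pearson r = 0.98 on log2(CPM + 0.5)), together with BARD1 (r = 0.98) and FANCA (r = 0.96). WDR48, the activator of the deubiquitinase USP1, ran opposite to it (r = −0.82). FANCF (r = −0.39), FAN1 (r = −0.36) and RAD51C (r = 0.06) did not share the common pattern either. The smallest range belonged to PALB2, the bridge between BRCA1 and BRCA2, whose level moved by 0.46 log2 units from its lowest to its highest condition. These correlations describe 12 condition means from 3 related cell populations, with no test. With the 5 deviating libraries left out of the means, a choice made after seeing the data that leaves 1 library in cis -SG carbo, wt -SG carbo was lowest for 26 members and cis highest for 15, r was 0.98 for BRCA1, 0.98 for BARD1, −0.85 for WDR48, −0.33 for FANCF, −0.47 for FAN1 and 0.03 for RAD51C, and PALB2 still had the smallest range (0.46).

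**Figure D1:**
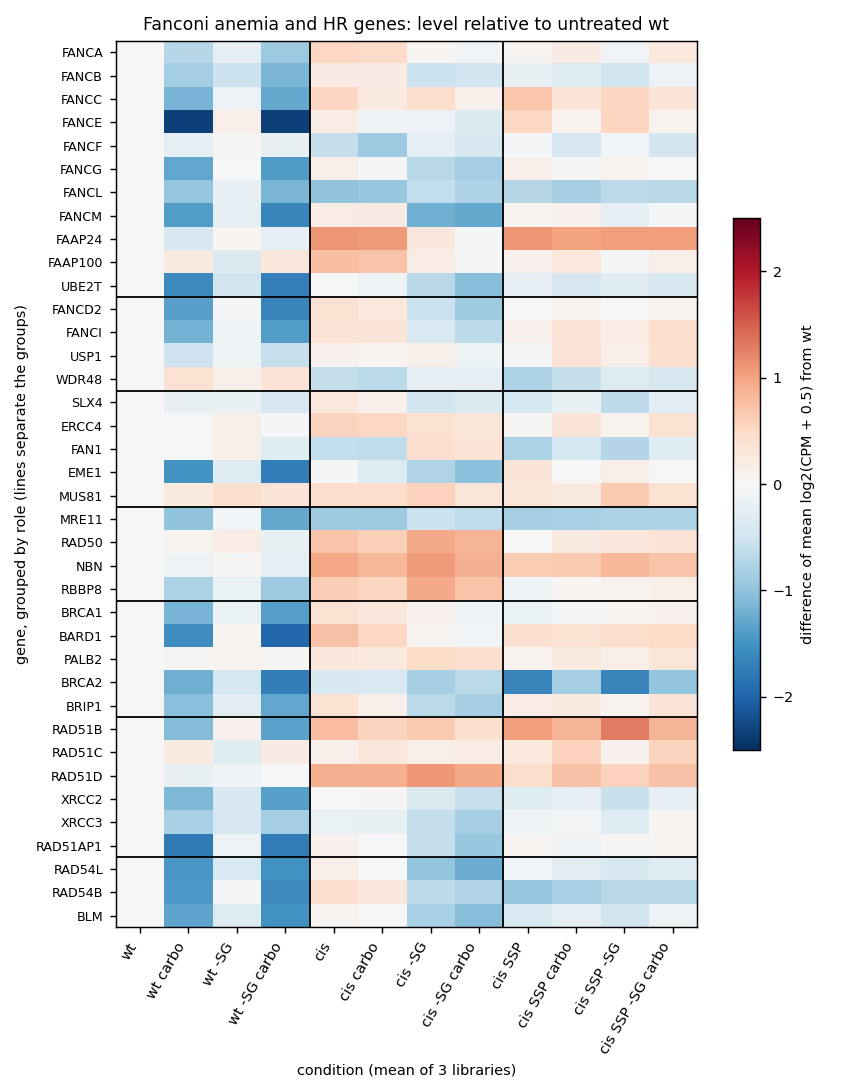
Level of each of the 38 genes in the 12 conditions, as the difference of its mean log2(CPM + 0.5) over 3 libraries from untreated wt; blue is lower, red is higher, and horizontal lines separate the groups of genes by role. The 2 wt carboplatin columns are blue for most genes, and FANCE is the darkest of them.

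The first comparison asked how resistant cells differ from sensitive ones before treatment. In cis cells 24 of the 38 members were higher than in wt and 7 were lower, whereas 39.4% and 39.1% of all genes tested were higher and lower and 78.5% were called in all. The median member was 0.21 log2 units higher, and the median of all genes was close to 0. End resection held some of the largest differences, in both directions. NBN, the signalling subunit of the MRE11-RAD50-NBN complex that senses and trims broken ends, was at 154, 147 and 144 CPM in wt and at 288, 282 and 298 CPM in cis. The groups were far apart (log2 fold change 0.93, SE 0.03, adjusted p = 3.98e-31, edgeR's quasi-likelihood test). MRE11, the nuclease of the same complex, was at 37.97, 39.1 and 36.3 CPM in wt and at 20.1, 18.99 and 21.6 CPM in cis. It was thus lower in all cis libraries (log2 fold change −0.93, SE 0.06, adjusted p = 9.47e-19), while RAD50 and RBBP8, which encodes the resection factor CtIP, were higher (0.69 and 0.58 log2 units).

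Within the core complex 7 genes were higher and 2 were lower. FAAP24, which with FANCM binds DNA and anchors the complex, had the largest rise of all members, from 7.86, 7.38 and 7.29 CPM to 16.5, 17.1 and 16.8 CPM (log2 fold change 1.13, SE 0.09, adjusted p = 5.44e-16). FAAP100, a partner of FANCB and FANCL in the catalytic module, also rose (0.73, SE 0.04, adjusted p = 5.98e-20). FANCL, the subunit with ubiquitin ligase activity, had the largest fall, from 31.7, 28.96 and 29.01 CPM to 13.7, 14.8 and 15.4 CPM (log2 fold change −1.05, SE 0.07, adjusted p = 1.26e-18). FANCF, an adaptor subunit, fell too (−0.66, SE 0.09, adjusted p = 4.66e-09). UBE2T, the E2 enzyme that acts with the core complex, was at 66.6, 71.1 and 70.3 CPM in wt and at 69.9, 69.0 and 70.0 CPM in cis. These values overlapped, and the test found no difference (−0.03, SE 0.04, adjusted p = 0.512). Downstream of the core complex FANCD2 was higher in cis (0.35, SE 0.04, adjusted p = 4.35e-12), as was FANCI, and WDR48 was lower (−0.63, SE 0.04, adjusted p = 4.51e-17). The nuclease FAN1 was lower as well (−0.66, SE 0.06, adjusted p = 7.40e-13), whereas ERCC4, MUS81 and the scaffold SLX4 were higher.

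In the HR arm the genes of the BRCA1 axis differed in direction. BRCA1 rose from 118, 122 and 118 CPM to 158, 148 and 159 CPM (log2 fold change 0.35, SE 0.03, adjusted p = 6.43e-14), and its partner BARD1 and the helicase gene BRIP1 rose with it. BRCA2, a central mediator of HR at resected DNA, fell from 43.6, 41.7 and 43.0 CPM to 30.4, 34.2 and 32.1 CPM (−0.44, SE 0.05, adjusted p = 3.64e-10). Among the paralogs RAD51B, RAD51C, RAD51D, XRCC2 and XRCC3, RAD51D (0.91, SE 0.09, adjusted p = 2.57e-12) and RAD51B (0.78, SE 0.10, adjusted p = 5.22e-09) were higher in cis, XRCC3 was lower, and RAD51C and XRCC2 were not called. In bulk RNA, fewer cells of a kind and less RNA per cell cannot be told apart, here and in what follows.

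Carboplatin in sensitive cells gave the largest median change of the members among the comparisons made, although deprivation of cis cells, described later, had 35 members called against 34 here. Of the 38, 29 fell and 5 rose under the drug, whereas 39% of all genes tested fell and 38.9% rose, 77.8% in all. The median member was lower by a log2 fold change of −0.99, and the median of all genes did not shift. Every group of genes by role held members that fell: 10 of 11 in the core complex, 3 of 4 around FANCD2 and FANCI, 2 of 5 nuclease genes, 3 of 4 end resection genes, 4 of 5 in the BRCA1-PALB2-BRCA2 axis, 4 of the 6 genes RAD51B, RAD51C, RAD51D, XRCC2, XRCC3 and RAD51AP1, and all 3 of RAD54L, RAD54B and BLM. The 5 members whose wt and wt carbo libraries overlapped were ERCC4, FAN1, RAD50, PALB2 and RAD51D. How many of all genes overlapped between these libraries was not counted.

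FANCE, the subunit that binds FANCD2, showed the largest fall of the module. It was at 26.5, 28.5 and 28.1 CPM in untreated wt and at 5.25, 4.41 and 5.71 CPM under carboplatin. All treated libraries were thus well under all untreated ones (log2 fold change −2.41, SE 0.08, adjusted p = 9.14e-123). RAD51AP1, a cofactor of strand invasion in HR, fell from 40.4, 39.5 and 37.03 CPM to 11.1, 10.9 and 11.4 CPM (−1.79, SE 0.06, adjusted p = 6.30e-117). UBE2T fell from 66.6, 71.1 and 70.3 CPM to 22.6, 22.8 and 22.5 CPM (−1.60, SE 0.05, adjusted p = 6.43e-153). Next came BARD1 (−1.59, SE 0.09, adjusted p = 4.06e-59) and EME1, the partner of the nuclease MUS81 (−1.59, SE 0.12, adjusted p = 1.30e-37). Transcripts of the central genes of the pathway fell as well. FANCD2 was at 83.7, 79.8 and 85.8 CPM without the drug and at 32.5, 31.3 and 32.2 CPM with it (−1.36, SE 0.04, adjusted p = 8.98e-145). BRCA1 (−1.15, SE 0.03, adjusted p = 6.64e-152) and BRCA2 (−1.23, SE 0.06, adjusted p = 1.03e-81) fell by similar amounts.

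The members that rose did so by less. WDR48 went from 65.4, 72.8 and 67.3 CPM to 89.1, 87.8 and 89.3 CPM (log2 fold change 0.39, SE 0.03, adjusted p = 2.04e-26), with no overlap, while its partner USP1 fell (−0.50). MUS81 (0.26, SE 0.04, adjusted p = 1.11e-09), RAD51C (0.25, SE 0.06, adjusted p = 1.24e-05) and FAAP100 (0.25, SE 0.04, adjusted p = 4.92e-08) also rose. RAD50 moved least of those called (0.08, SE 0.03, adjusted p = 0.00854), its libraries overlapped, and the call was lost with DESeq2 (0.07, adjusted p = 0.184) and in 2 of 6 fits that left out 1 library. The heterodimer of MUS81 and EME1 therefore had one subunit higher and the other lower at the RNA level. PALB2 was at 20.98, 22.5 and 21.4 CPM without and at 21.7, 23 and 21.7 CPM with carboplatin, a difference of 0.05 log2 units (SE 0.06, adjusted p = 0.487).

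Other gene lists moved in the same libraries. Of 18 proliferation and S-phase markers, 16 were lower, and their summed level went from between 4413 and 4527 CPM in wt to between 1967 and 1999 CPM in wt carbo. Of 12 p53 target genes, all were higher, with sums of 769 to 784 CPM and of 4240 to 4295 CPM. Of 34 further crosslink repair and HR genes, 25 were lower, among them DCLRE1A (log2 fold change −1.35), and 4 were higher. Of 13 tested genes of nonhomologous end joining, 7 were lower and 2 higher. Of all genes tested, 39% were lower and 38.9% higher. The median of the members (−0.99) lay between that of the proliferation markers (−1.37) and those of the further repair genes (−0.45) and the end joining genes (−0.17). The part of proliferation in the members' fall was not tested.

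**Figure D2:**
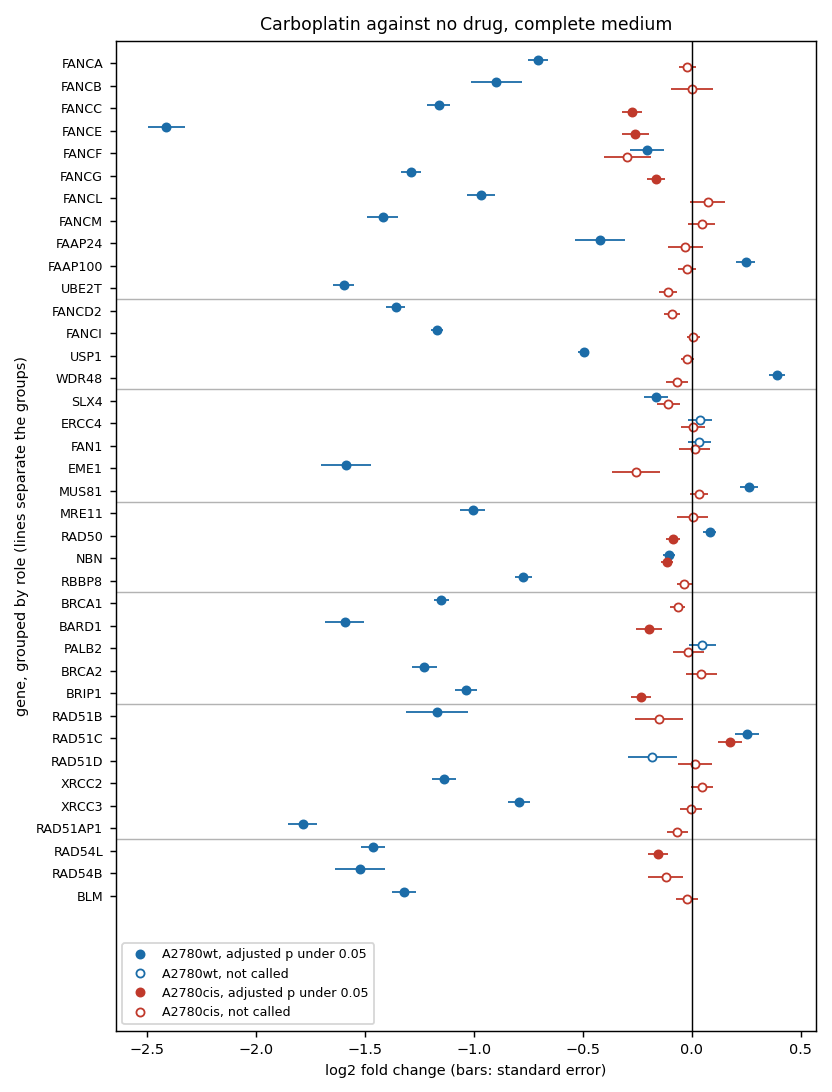
Log2 fold change under carboplatin in complete medium for each of the 38 genes, with the standard error as a bar, in A2780wt (blue) and A2780cis (red); filled points passed an adjusted p of 0.05. The blue points reach −2.41 at FANCE, and the red ones stay between −0.30 and 0.18.

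The promoters of the members are shown because so many of them fell together. RefSeq windows on GRCh38.p14, from 250 bases before to 50 bases after the annotated start, were found for 35 of the 38 genes, and for NBN, RAD54B and FANCI none was used. The windows were searched on both strands for letters of an E2F site (the letters TTCCCGC, the letters TTGGCGC, the letters TTCGCGC or the letters TTGCCGC), for the cell cycle element CHR (TTTGAA) and for the CCAAT box. The reverse strand of the CCAAT box ends in 4 letters with which the TTGGCGC form begins, so both matches can overlap. Of the 45 member windows, 48.9% held E2F letters, against 13% of all 35116 windows and 18.6% of those of genes tested in the wt carboplatin comparison. The share was 22.3% in windows of all genes that fell in it and 15.4% in those of all genes that rose. By gene, 17 of 26 members that fell held E2F letters, as did none of the 5 that rose and 1 of the 4 not called. The 5 that rose are too few to be set apart from the 15.4%. In the comparison of deprived and untreated cis cells, described later, E2F letters were in 13 of 21 members that fell. They were also in 4 of 11 that rose and 1 of 3 not called. CHR letters were in 11.1% of the member windows, 15.2% of all windows and 10.4% of those of genes tested. CCAAT was in 35.6%, 34.6% and 34.5%. The windows of the 3 members that fell most and of PALB2, which did not move, were picked after their values were seen. Matches are in capitals.
FANCE, chr6:35452088-35452387, + strand: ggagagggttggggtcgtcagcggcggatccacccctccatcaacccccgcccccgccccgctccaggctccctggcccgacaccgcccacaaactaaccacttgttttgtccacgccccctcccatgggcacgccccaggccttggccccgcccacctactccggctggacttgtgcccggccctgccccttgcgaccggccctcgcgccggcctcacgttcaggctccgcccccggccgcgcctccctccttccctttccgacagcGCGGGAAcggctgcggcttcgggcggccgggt
RAD51AP1, chr12:4538640-4538939, + strand: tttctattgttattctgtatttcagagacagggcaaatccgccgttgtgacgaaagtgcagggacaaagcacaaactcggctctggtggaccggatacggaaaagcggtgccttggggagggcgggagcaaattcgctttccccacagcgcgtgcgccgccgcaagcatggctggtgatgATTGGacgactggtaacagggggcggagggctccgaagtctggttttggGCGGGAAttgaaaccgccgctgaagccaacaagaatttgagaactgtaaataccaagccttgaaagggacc
UBE2T, chr1:202341887-202342186, - strand: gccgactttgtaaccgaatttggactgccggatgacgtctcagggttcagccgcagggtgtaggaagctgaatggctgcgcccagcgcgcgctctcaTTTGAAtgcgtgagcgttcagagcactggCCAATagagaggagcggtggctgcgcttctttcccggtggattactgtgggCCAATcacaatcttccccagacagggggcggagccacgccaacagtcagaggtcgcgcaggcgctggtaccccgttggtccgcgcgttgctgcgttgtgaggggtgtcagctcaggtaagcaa
PALB2, chr16:23641261-23641560, - strand: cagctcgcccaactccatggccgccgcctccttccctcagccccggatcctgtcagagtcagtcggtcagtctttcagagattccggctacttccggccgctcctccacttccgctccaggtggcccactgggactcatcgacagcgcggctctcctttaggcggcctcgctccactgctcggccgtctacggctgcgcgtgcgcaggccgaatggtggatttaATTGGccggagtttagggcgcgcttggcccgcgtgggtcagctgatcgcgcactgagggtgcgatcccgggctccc
E2F letters thus stood 19 bases past the start in FANCE and 21 bases before it in RAD51AP1 (position −21), and were not in the UBE2T and PALB2 windows. UBE2T held CHR letters at −153 and CCAAT at −124 and −73. A match is a description of the letters and not of bound factors.

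Resistant cells were then compared with and without carboplatin. In cis cells 8 of the 38 members were lower and 1 was higher under the drug, whereas 10.8% and 9.27% of all genes tested were. The median member was at −0.03. The changes were small, and the largest falls among the members called were those of FANCC, a core complex subunit (log2 fold change −0.27, SE 0.05, adjusted p = 4.55e-05), and FANCE (−0.26, SE 0.06, adjusted p = 0.00262). FANCE was at 29.5, 33.3 and 31.8 CPM without and at 26.7, 25.5 and 25.4 CPM with carboplatin. Its treated libraries were all lower, by a small margin. BRIP1 (−0.23, SE 0.04, adjusted p = 3.17e-04), BARD1 (−0.20, SE 0.06, adjusted p = 0.018) and FANCG (−0.16, SE 0.04, adjusted p = 0.00473) were lower too, and RAD51C was higher (0.18, SE 0.06, adjusted p = 0.0272). Leaving out 1 library at a time, RAD51C, the one member called higher, lost the call in 4 of 6 fits and BARD1 in 3 of 6. None of the central genes passed the test: FANCD2 was at −0.09 (SE 0.04, adjusted p = 0.0807), UBE2T at −0.11 (SE 0.04, adjusted p = 0.0549), BRCA1 at −0.07 (SE 0.03, adjusted p = 0.175) and BRCA2 at 0.04 (SE 0.07, adjusted p = 0.724). DESeq2 called 5 members in place of 9, and a single fit over all 36 libraries called 1. Calls over all genes fell too. The main fit had 1247 higher and 1455 lower, DESeq2 had 569 and 780, and the single fit had 218 and 183. The proliferation markers moved by less than in wt, from between 4889 and 5042 CPM to between 4512 and 4534 CPM, with 10 of 18 lower. The p53 targets summed to between 814 and 830 CPM untreated and to between 1469 and 1521 CPM treated.

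An interaction term tested whether the response to carboplatin differs between cis and wt cells. It was called for 30 members, 26 with a higher and 4 with a lower log2 fold change in cis, against 30.3% and 27.2% of all genes and 57.6% in both directions. The median difference was 0.90 for the members. FANCE had the largest, 2.16 (SE 0.11, adjusted p = 1.27e-25), before RAD51AP1 (1.73, SE 0.08, adjusted p = 5.79e-27) and UBE2T (1.49, SE 0.06, adjusted p = 2.84e-29). FANCD2 (1.27, SE 0.06, adjusted p = 2.77e-28), BRCA2 (1.27, SE 0.09, adjusted p = 1.72e-18) and BRCA1 (1.09, SE 0.05, adjusted p = 1.25e-28) differed in the same direction. The members that had risen in wt showed the opposite sign, as for WDR48 (−0.45, SE 0.06, adjusted p = 3.24e-09), FAAP100 (−0.26, SE 0.06, adjusted p = 1.09e-04) and MUS81 (−0.22, SE 0.06, adjusted p = 7.83e-04). NBN was at −0.11 in both lines, and the difference, which was not called, had an SE of 0.04. Of the 8 members lower in cis under the drug, 7 were among the 29 lower in wt. The exception was RAD50, which was lower in cis (−0.09) and higher in wt (0.08).

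**Figure D3:**
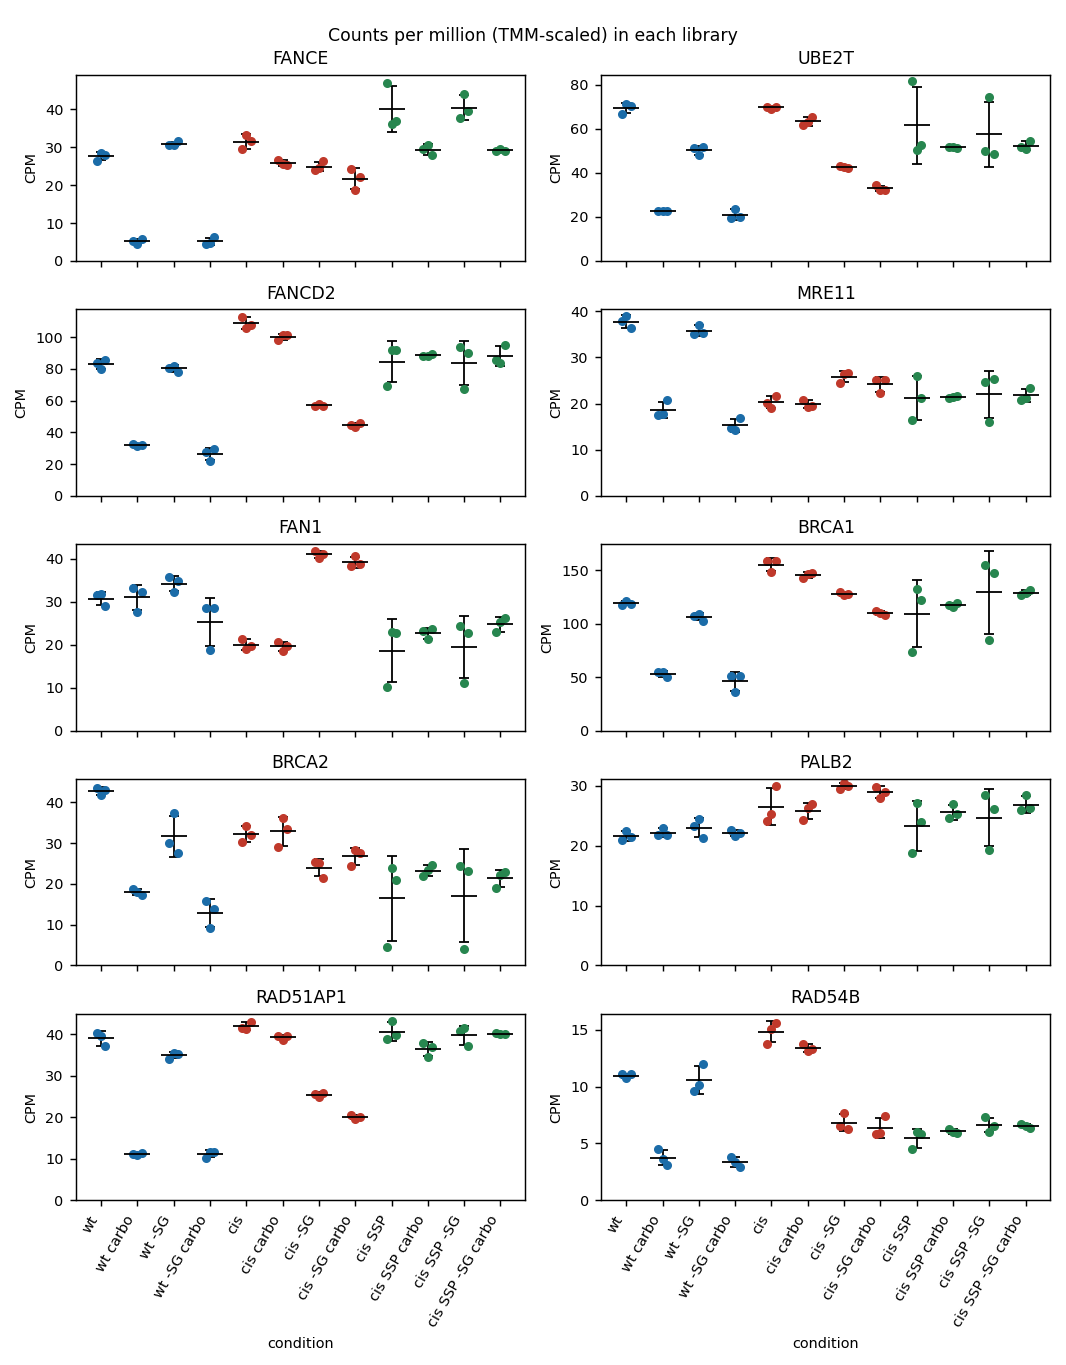
CPM of 10 of the genes in each library (points; blue wt, red cis, green cis SSP), with the mean as a bar and the SD as whiskers. FANCE and RAD51AP1 drop in both wt carboplatin conditions, MRE11 is higher in untreated wt than in any cis condition, and 1 low BRCA2 library is seen in cis SSP and 1 in cis SSP -SG.

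The next comparison asked how the members respond when serine and glycine are withheld. In cis cells without serine and glycine 23 members fell and 12 rose, against 37.4% and 37.6% of all genes tested, and 75% of genes were called in all. The median member was at −0.37. FANCM, the translocase that anchors the core complex on DNA, fell most, from 29.96, 29.9 and 33.3 CPM to 11.97, 12.1 and 10.6 CPM (log2 fold change −1.40, SE 0.07, adjusted p = 3.43e-22). The RAD54 translocases, which act during strand exchange, followed: RAD54L went from 59.5, 59.9 and 59.7 CPM to 25.3, 25.6 and 28.2 CPM (−1.15, SE 0.05, adjusted p = 1.80e-24). RAD54B, whose exons overlap those of FSBP on the same strand so that its counts are less certain, fell by a similar amount (−1.10, SE 0.09, adjusted p = 2.37e-14). BRIP1 (−1.03, SE 0.05, adjusted p = 9.82e-24) and FANCD2 (−0.90, SE 0.04, adjusted p = 6.37e-25) were next, FANCD2 going from 113, 106 and 108 CPM to 56.6, 57.9 and 56.8 CPM. In none of these 5 genes did the groups overlap. UBE2T (−0.68, SE 0.04, adjusted p = 1.37e-18), BRCA2 (−0.40, SE 0.06, adjusted p = 2.76e-07) and BRCA1 (−0.25, SE 0.03, adjusted p = 6.47e-09) fell by less.

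The genes that rose in deprived cis cells included the whole end resection group. MRE11 was at 20.1, 18.99 and 21.6 CPM in complete medium and at 24.4, 26.4 and 26.6 CPM without serine and glycine (log2 fold change 0.38, SE 0.07, adjusted p = 1.98e-06). RBBP8 (0.37), RAD50 (0.26) and NBN (0.13) were higher in every deprived library as well. The largest rise was that of FAN1, from 21.4, 18.9 and 19.6 CPM to 41.8, 40.2 and 41.1 CPM (1.07, SE 0.06, adjusted p = 4.82e-21), with no overlap. Of its neighbours in function, SLX4 (−0.73), EME1 (−0.73) and ERCC4 (−0.14) fell, and MUS81 was called higher. FANCF (0.43, SE 0.09, adjusted p = 6.75e-05), FANCL (0.43, SE 0.07, adjusted p = 1.59e-06) and WDR48 (0.42, SE 0.05, adjusted p = 3.37e-11) also rose. FANCL, FANCF, MRE11, FAN1 and WDR48 were the 5 members with the largest deficit in untreated cis against wt. That comparison and this one share the untreated cis libraries, so the values are set side by side without a test. Deprived cis cells had a mean of 19.4 CPM of FANCL and 25.8 CPM of MRE11, still under the 29.9 and 37.8 CPM of untreated wt, and 41.0 CPM of FAN1, above the 30.7 CPM of wt.

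In wt cells deprivation moved the members by less. There 21 fell and 6 rose, against 25.1% and 24.1% of all genes tested and 49.2% in both directions, with a median of −0.13. FANCB, in the catalytic module, fell most, from 9.02, 7.77 and 9.18 CPM to 5.20, 6.58 and 5.59 CPM (log2 fold change −0.57, SE 0.11, adjusted p = 3.03e-04). UBE2T (−0.45, SE 0.04, adjusted p = 2.70e-08) and BRCA2 (−0.42, SE 0.10, adjusted p = 0.0104) fell by similar amounts, and BRCA1 by little (−0.15, SE 0.03, adjusted p = 8.11e-04). FANCD2 was at 80.8, 82.1 and 78.2 CPM, overlapping the untreated libraries (−0.03, SE 0.04, adjusted p = 0.482). MUS81 rose in all libraries (0.42, SE 0.04, adjusted p = 4.38e-08), as did RAD50 (0.21, SE 0.04, adjusted p = 6.22e-04) and FANCE (0.17, SE 0.05, adjusted p = 0.0114). FANCE was at 30.5, 30.7 and 31.6 CPM in deprived wt, above all untreated wt libraries.

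The interaction of line and deprivation was called for 29 members, 10 higher and 19 lower in cis, against 27.1% and 26.9% of all genes and 54% in both directions. FAN1 differed most upward (0.92, SE 0.08, adjusted p = 2.99e-12), then FANCL (0.63, SE 0.09, adjusted p = 1.91e-07) and RBBP8 (0.54, SE 0.05, adjusted p = 1.06e-11). FANCM (−1.15, SE 0.10, adjusted p = 7.05e-13), RAD54B (−1.03, SE 0.13, adjusted p = 2.60e-08) and FAAP24 (−0.90, SE 0.13, adjusted p = 1.81e-07) differed most downward. FANCD2 (−0.85, SE 0.05, adjusted p = 3.82e-16) and UBE2T (−0.21, SE 0.06, adjusted p = 0.00284) fell more in cis, whereas BRCA1 (−0.09, SE 0.05, adjusted p = 0.112) and BRCA2 (0.03, SE 0.14, adjusted p = 0.887) gave no called difference. A single fit over all 36 libraries called 17 members in place of 29. Among all genes tested it called 2247 higher and 2633 lower, in place of 4180 and 4141. The proliferation markers moved here too, from between 4889 and 5042 CPM to between 2941 and 2995 CPM in cis (17 of 18 lower) and from between 4413 and 4527 CPM to between 3393 and 3500 CPM in wt (18 of 18 lower). In deprived cis cells p53 targets also summed to between 1304 and 1362 CPM, against 814 to 830 CPM (9 of 11 tested higher, 1 lower), COL3A1 was lower (log2 fold change −2.12) and KRT18 higher (1.34). The part of these changes in those of the members was not tested.

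**Figure D4:**
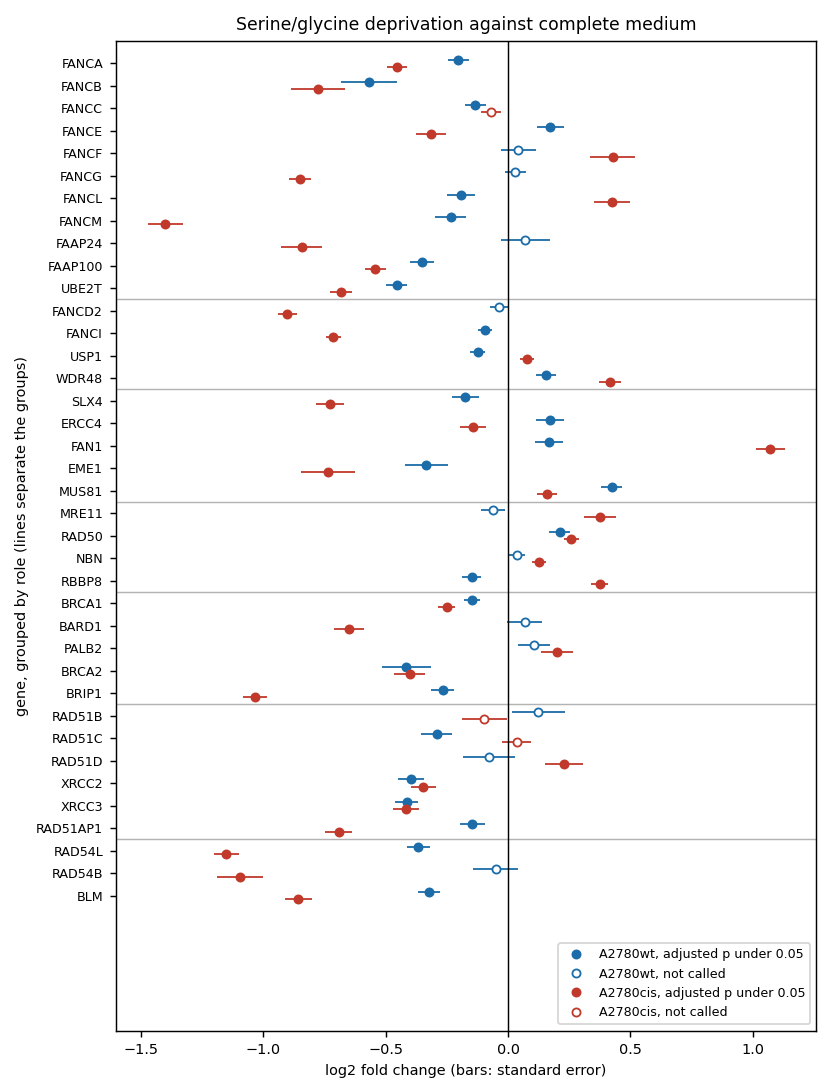
Log2 fold change without serine and glycine against complete medium for each of the 38 genes, with the standard error as a bar, in A2780wt (blue) and A2780cis (red); filled points passed an adjusted p of 0.05. FAN1 in cis lies at 1.07 and FANCM in cis at −1.40, and the 4 end resection genes in cis all lie to the right of 0.

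The carboplatin response of wt cells and the deprivation response of cis cells share no library, so their calls can be counted against each other. Of the 29 members lower in the first and the 23 lower in the second, 21 were the same genes, including FANCA, FANCD2, FANCI, BRCA1, BARD1, BRCA2 and BLM. Another 6 were lower under carboplatin in wt and higher under deprivation in cis: FANCF, FANCL, USP1, MRE11, NBN and RBBP8, of which 3 act in end resection. FAAP100 went the other way, at 0.25 in carboplatin-treated wt and −0.54 in deprived cis. WDR48, MUS81 and RAD50 were higher in both. Since most members were lower in each comparison, many shared genes follow from the counts alone. The same overlap was not counted over all genes.

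Carboplatin and deprivation were also combined. In deprived wt cells carboplatin lowered 27 members and raised 3, against 34.6% and 34.3% of all genes tested and 68.9% in both directions, with a median of −0.93. FANCE again fell most, to 4.38, 4.71 and 6.26 CPM (log2 fold change −2.56, SE 0.11, adjusted p = 6.54e-08), followed by BARD1 (−2.09, SE 0.12, adjusted p = 4.68e-07) and RAD54B (−1.61, SE 0.14, adjusted p = 5.43e-06). FANCD2 (−1.59, SE 0.10, adjusted p = 5.80e-07), BRCA2 (−1.28, SE 0.20, adjusted p = 6.66e-04), UBE2T (−1.23, SE 0.09, adjusted p = 1.29e-06) and BRCA1 (−1.18, SE 0.12, adjusted p = 3.32e-05) were lower as well. FAAP100 (0.67, SE 0.06, adjusted p = 5.31e-06), RAD51C (0.55, SE 0.10, adjusted p = 8.52e-04) and WDR48 (0.23, SE 0.06, adjusted p = 0.00748) were higher. Of the 29 members lower with carboplatin in complete medium, 26 were among these 27, and the 3 members higher here had all been higher there. Shared calls between the media were not counted over all genes. FAN1 was lower in the deprived cells alone (−0.41), and whether its response differs between media in wt was not tested. Without the second wt -SG carbo library, whose BRCA2 level was 9.06 CPM against 15.8 and 13.8, 31 members were lower and 4 higher with 73.3% of genes called, FANCE was at −2.502 and BRCA2 at −1.08.

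In deprived cis cells carboplatin lowered 9 members and raised none, against 11.6% and 10.9% of all genes tested. The falls were small again. UBE2T went from 43.1, 42.6 and 42.1 CPM to 34.3, 32.2 and 32.1 CPM (log2 fold change −0.28, SE 0.05, adjusted p = 9.31e-04). FANCD2 (−0.26, SE 0.05, adjusted p = 0.00157), RAD51AP1 (−0.26, SE 0.06, adjusted p = 0.00862) and BRCA1 (−0.13, SE 0.04, adjusted p = 0.0236) were lower, and BRCA2 was not called (0.25, SE 0.10, adjusted p = 0.0886). Only FANCC was among the 9 here and the 8 in complete medium. Leaving out the 2 libraries with many reads on no feature leaves 1 cis -SG carbo library, which is then assumed to vary like the cis -SG libraries; this gave 11 lower members with 14.5% of genes called, UBE2T at −0.30 and FANCD2 at −0.34. The interaction of medium and carboplatin in cis was called for 4 members, 3 lower and 1 higher without serine and glycine, against 6.17% and 5.91% of all genes. These were SLX4 (0.32, SE 0.09, adjusted p = 0.0216), MUS81 (−0.20, SE 0.06, adjusted p = 0.0226), USP1 (−0.17, SE 0.05, adjusted p = 0.0145) and FANCI (−0.17, SE 0.04, adjusted p = 0.0102). Without those 2 libraries, with 1 cis -SG carbo library left and its spread again taken from the other groups, SLX4 (0.14) and USP1 (−0.11) were not called, and FANCI (−0.18), MUS81 (−0.22), FANCD2 (−0.26) and XRCC2 (−0.43) were. Neither FANCD2 (−0.17, SE 0.06, adjusted p = 0.0654), UBE2T (−0.17, SE 0.06, adjusted p = 0.0747), BRCA1 (−0.06, SE 0.05, adjusted p = 0.512) nor BRCA2 (0.21, SE 0.14, adjusted p = 0.379) was called in the fit with all libraries.

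**Figure D5:**
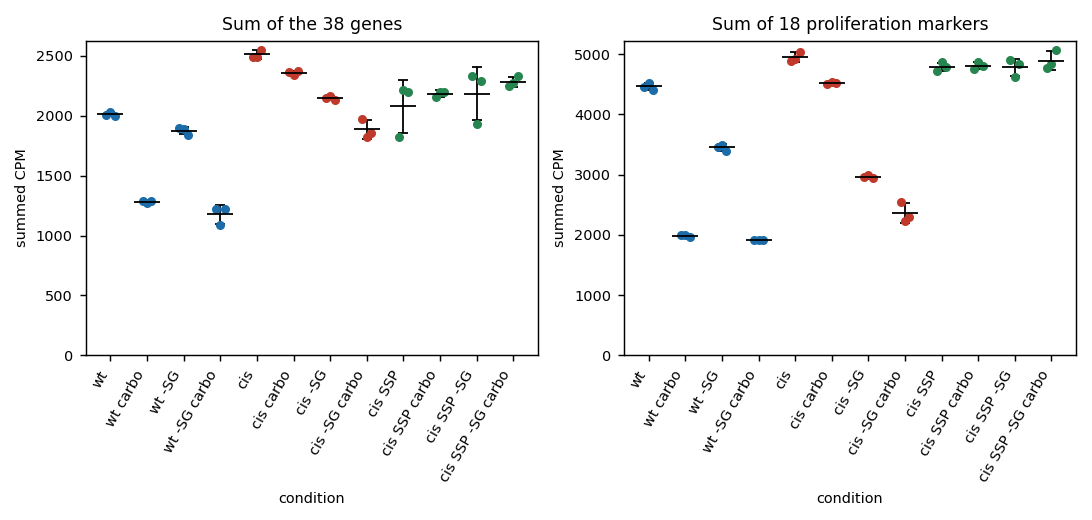
CPM summed over the 38 genes (left) and over 18 proliferation and S-phase markers (right) in each library (points; blue wt, red cis, green cis SSP), with the mean as a bar and the SD as whiskers. Both sums are lowest in the wt carboplatin conditions, and in cis -SG the marker sum falls from a mean of 4952 to 2966 while the member sum falls from 2513 to 2148.

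The cis SSP cells were compared with the cis cells they came from. With all libraries 4 members were lower and 2 higher, against 13.3% and 15.8% of all genes tested. RAD54B, a translocase related to RAD54L, had the clearest difference, from 13.8, 15.04 and 15.6 CPM in cis to 4.53, 6.04 and 5.81 CPM in cis SSP (log2 fold change −1.41, SE 0.15, adjusted p = 0.0012). RBBP8 fell from 119, 118 and 128 CPM to 66.1, 77.5 and 78.0 CPM (−0.69, SE 0.11, adjusted p = 0.00569) and FAAP100 from 74.7, 74.4 and 73.4 CPM to 53.8, 44.3 and 44.3 CPM (−0.62, SE 0.11, adjusted p = 0.00704). BLM, a helicase that dissolves joined DNA molecules, was lower too (−0.43, SE 0.11, adjusted p = 0.0253), and FANCF (0.59, SE 0.12, adjusted p = 0.0148) and EME1 (0.39, SE 0.12, adjusted p = 0.046) were higher. EME1 and BLM lost the call in 5 of 6 fits that left out 1 library, and FANCF and FAAP100 in 2 of 6.

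The first cis SSP library decided much of this comparison. In it BRCA2, with one of the longest transcripts of the module, was at 4.60 CPM, and the remaining libraries of the condition had 23.9 and 20.97 CPM, and SLX4 was at 11.8 against 36.3 and 34.3 CPM. UBE2T, with a short transcript, stood at 81.4 against 50.4 and 52.6 CPM. With it BRCA2 was at −0.93 (SE 0.53, adjusted p = 0.232), BRCA1 at −0.47 (SE 0.23, adjusted p = 0.164), FANCD2 at −0.34 (SE 0.14, adjusted p = 0.121) and UBE2T at −0.16 (SE 0.19, adjusted p = 0.555). Without it 16 members were lower and 10 higher, with 32.5% and 32.9% of all genes, and 65.4% in both directions. RAD54B (−1.28), FAAP100 (−0.70), RBBP8 (−0.60) and FANCF (0.57) then kept their direction and call. BRCA2 was at −0.49 (SE 0.07, adjusted p = 4.15e-07), UBE2T at −0.39 (SE 0.05, adjusted p = 7.73e-09), BRCA1 at −0.24 (SE 0.04, adjusted p = 3.85e-06) and FANCD2 at −0.20 (SE 0.04, adjusted p = 5.42e-05). Proliferation markers summed to between 4721 and 4865 CPM in cis SSP, close to the cis cells, and 4 of 18 were higher and 1 was lower.

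Under carboplatin no member was called in cis SSP with all libraries, against 2.72% of all genes tested (1.97% higher and 0.749% lower). edgeR gave 5 members an unadjusted p under 0.05, and DESeq2 called 1. Over all genes DESeq2 called 466 higher and 256 lower. FANCD2 (0.06, SE 0.13, adjusted p = 0.822), BRCA1 (0.09, SE 0.22, adjusted p = 0.844), BRCA2 (0.49, SE 0.52, adjusted p = 0.657) and UBE2T (−0.26, SE 0.20, adjusted p = 0.545) had wide errors. Without the first cis SSP library 14 members were lower and 4 higher, with 19.2% and 21.9% of all genes and 41.2% in both directions. FANCC then went from 88.2 and 88.8 CPM to 62.6, 64.6 and 64.7 CPM (−0.47, SE 0.04, adjusted p = 2.94e-10), and FANCB (−0.39), EME1 (−0.35), FANCF (−0.34) and FANCE (−0.32) were lower. RAD51C rose from 28.96 and 27.6 CPM to 37.98, 40.4 and 38.9 CPM (0.47, SE 0.06, adjusted p = 2.93e-07), and USP1 rose by 0.40. BRCA1 was at −0.12 (SE 0.04, adjusted p = 0.0104), and FANCD2 (−0.06) and UBE2T were not called. The falls of 1 log2 unit and more seen in wt were not seen among these values, and whether cis SSP cells differ from cis or wt cells in this response was not tested. The p53 targets summed to between 1673 and 1719 CPM in cis SSP carbo and to between 569 and 699 CPM in cis SSP.

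No member was called under deprivation in cis SSP cells with all libraries. edgeR gave 2 members an unadjusted p under 0.05, and it called 0.0218% of all genes. DESeq2 called 0 members, and over all genes 90 higher and 15 lower. FANCD2 (−0.02, SE 0.20, adjusted p = 1), BRCA1 (0.23, SE 0.33, adjusted p = 1), BRCA2 (0.05, SE 0.83, adjusted p = 1) and UBE2T (−0.11, SE 0.26, adjusted p = 1) could not be resolved at this spread. With both deviating libraries left out, 2 against 2, 9 members were higher and 9 lower, with 18.9% and 17% of all genes. WDR48 was then at 42.8 and 43.5 CPM in complete medium and at 58.5 and 58.2 CPM without serine and glycine (log2 fold change 0.43, SE 0.05, adjusted p = 3.47e-07). MUS81 (0.34), RAD50 (0.28), BRCA1 (0.24), RBBP8 (0.19) and NBN (0.16) were higher, and RAD54L (−0.36), FANCM (−0.29), XRCC3 (−0.27) and XRCC2 (−0.26) were lower. FAN1, which rose most in deprived cis cells, was at 0.04 (SE 0.07, adjusted p = 0.714).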

How the data were processed

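A2780 cells were profiled by RNA-seq of poly(A)-purified RNA (SENSE Total RNA-Seq kit) in 12 conditions of 3 libraries. The authors aligned reads with STAR to GRCh37.p13 and counted them per gene with HTSeq on GENCODE release 19; the deposited values are raw counts, with no strand setting given in the sources used here. The 3 rows naming no gene were left out of library sizes and tests; of these, reads on no feature made up 4.21% to 17.9% of a library. The totals of 13074937 to 20441582 counts set the precision, and SEs cover the spread between libraries.

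All genes of the table were fitted with edgeR 4.0.16 in R 4.3.3 (TMM scaling, filterByExpr, robust quasi-likelihood fit) on the libraries of the conditions compared. P-values are two-sided and Benjamini-Hochberg adjusted over all genes tested, with calls under 0.05. The SE was obtained from the F statistic, as the size of the log2 fold change over its root. CPM use TMM factors over the 36 libraries, and levels per kilobase divide by the canonical transcript of GENCODE release 44. DESeq2 1.42.0, other scalings and filters, a single fit over 36 libraries, removal of a trend over transcript length and leaving out libraries were the alternatives. Scripts were tested on simulated data. No replicate pair agreed within counting noise (mean chi-square per gene of 1.20 to 122.8, against 1 for counting noise alone). The highest value was that of the first and second cis SSP -SG libraries.

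The members and lists were chosen with earlier results of these data known. In each comparison the members given with SE and adjusted p were those called, up to 5 in each direction by size of change (3 in the smaller comparisons), provided they averaged 50 counts or more, plus FANCD2, BRCA1, BRCA2 and UBE2T throughout. Other members are named after their values were seen. RAD54B shares exons with FSBP on the same strand, smaller overlaps exist for BRCA1, FANCB, RAD51D and RBBP8, and FANCD2 has pseudogene copies, so these counts are less certain; without a strand setting, genes overlapping on opposite strands may also share reads.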

Additional observations from a re-analysis of the deposited data

Results flagged for a closer look

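The carboplatin response differed between cis and wt cells for 30 of the 38 members, by an interaction term in edgeR's quasi-likelihood test that was called for 57.6% of all genes. The difference of log2 fold changes was 2.16 for FANCE, 1.73 for RAD51AP1 and 1.49 for UBE2T, which fell in wt, and −0.45 for WDR48, −0.26 for FAAP100 and −0.22 for MUS81, which rose in wt.

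The response to serine/glycine deprivation differed between the same cells for 29 members and 54% of all genes. FAN1 (0.92), FANCL (0.63) and RBBP8 (0.54) had the higher response in cis, and FANCM (−1.15), RAD54B (−1.03) and FAAP24 (−0.90) the lower one.

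In cis cells the carboplatin response differed between media for 4 of the 38 members, a share no higher than the 12.1% of all genes called: SLX4 (0.32), MUS81 (−0.20), USP1 (−0.17) and FANCI (−0.17). Without cis -SG carbo replicates 2 and 3, which leaves 1 library assumed to vary like the other groups, MUS81 and FANCI were called and SLX4 and USP1 were not.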

How the results depend on the processing

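A single fit over the 36 libraries moved the number of members called to 18 for cis SSP against cis, 1 for carboplatin in cis, 7 for carboplatin in cis SSP, 9 for deprivation in wt, 4 for deprivation in cis SSP, 3 for carboplatin in deprived cis, 17 for the interaction of line and deprivation and 0 for that of medium and carboplatin. In the same order, 4310, 218, 1411, 1426, 799, 690, 2247 and 33 of the 16677 genes in that fit were called higher. Lower were 3669, 183, 1679, 1395, 731, 451, 2633 and 79. In that fit BRCA2 in the deprivation interaction was at −0.038. With the trend over transcript length removed, 13 members were called for cis SSP against cis and 4 for carboplatin in cis SSP, and UBE2T in cis against wt (0.034), FANCD2 (−0.037) and BRCA1 (−0.035) under carboplatin in cis SSP, and BRCA2 under deprivation in cis SSP (−0.026) and in the medium interaction (−0.013) changed sign. Among all genes, removal of the trend gave 2958 higher and 2947 lower for cis SSP against cis, and 760 and 542 for carboplatin in cis SSP. Total counts without TMM put FANCD2 under carboplatin in cis SSP at −0.0023 and BRCA2 under deprivation in cis SSP at −0.023. DESeq2 called 5 members for carboplatin in cis and 1 in cis SSP. Over all genes it called 569 higher and 780 lower in cis, and 466 and 256 in cis SSP. With no filter on low counts 1 member was called for the medium interaction, and 856 genes were higher and 711 lower of 33063. Without both deviating cis SSP libraries 18 members and 35.9% of all genes were called for deprivation. Without 2 of the 3 cis -SG carbo libraries BRCA2 in the medium interaction was at −0.016. The cause of these changes was not tested.

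Leaving out 1 library at a time, members called ranged from 28 to 31 for cis against wt, 2 to 26 for cis SSP against cis, 33 to 34, 5 to 9 and 0 to 18 for carboplatin in wt, cis and cis SSP, 23 to 27, 33 to 35 and 0 to 0 for deprivation in the same cells, 28 to 35 and 7 to 14 for carboplatin in deprived wt and cis, and 30 to 30, 27 to 29 and 2 to 10 for the 3 interactions. The 26 and the 18 came without the first cis SSP library, with 65.4% and 41.2% of all genes called. The 14 and the 10 came without the first cis -SG carbo library. There 2691 of 15050 genes were higher and 2533 lower for carboplatin in deprived cis. The other ranges are given without the share of all genes. Values whose sign turned ranged from −0.031 to 0.13 for BRCA2 under carboplatin in cis, from −0.057 to 0.13 for FANCD2 and −0.12 to 0.25 for BRCA1 under carboplatin in cis SSP, from −0.39 to 0.51 for BRCA2, −0.33 to 0.14 for UBE2T and −0.15 to 0.12 for FANCD2 under deprivation in cis SSP, and from −0.068 to 0.16 for BRCA2 in the deprivation interaction. Of 118 fold changes of named members, 111 kept direction and side of the threshold with DESeq2, 117 with its size factors in edgeR, 118 with at least 10 counts in every library and 88 in the single fit, as did 794 of 870 with 1 library left out. In deprived cells under carboplatin, the median of all genes was 0.14 in wt and 0.13 in cis with DESeq2, which was run without the filter, and 0.12 and 0.096 in edgeR without the filter; the gene set thus changed with the tool. No paired analysis was possible because the labels give no replicate numbers within a condition.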

Other observations

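The genes whose pattern over the 12 conditions was most like the mean of the 38 members, among 11578 genes compared, were CEP128, CEP72 and PFAS (Pearson r = 0.99 each), DCLRE1A (r = 0.99) and ECT2 (r = 0.98). DCLRE1A encodes a crosslink repair nuclease, CEP128 and CEP72 encode centrosomal proteins, PFAS an enzyme of purine synthesis and ECT2 a regulator of cytokinesis. Mean CPM of ECT2 was 134 in wt, 41.2 in wt carbo, 189 in cis and 103 in cis -SG, and that of DCLRE1A was 52.4, 20.3, 71.8 and 53.4 in the same order. These are condition means over all 36 libraries, and no test was made.

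Outside the 38 members, 34 further crosslink repair and HR genes moved in deprived cis cells as well, 23 lower and 6 higher, with a median log2 fold change of −0.35. Of the nonhomologous end joining genes, 9 were lower and 3 higher of 13 tested in deprived cis cells, with a median of −0.39. Of all genes tested in that comparison, 37.4% were lower and 37.6% higher. Among untreated cells, 15 of the 34 further genes were higher and 8 lower in cis than in wt, against 39.4% and 39.1% of all genes tested.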
